A study of Mus musculus with 2 samples.

Results

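The chains of integrins and laminins were described in 2 RNA sequencing libraries of C57BL/6 mice. Members were the genes of the deposited table whose symbols name an integrin alpha or beta chain or a laminin alpha, beta or gamma chain, and 37 of 31253 genes were chosen in this way, 26 integrin chains and 11 laminin chains. The first library came from cultured neural retinal progenitor cells of the mouse, called mNRPCs, that had reached passage 24, and the second from retina tissue, whose age the labels do not give. By the methods of the study, these cells were grown from dissociated neural retina on dishes coated with Matrigel. Their defined medium held basic fibroblast growth factor and CHIR99021, which blocks the kinase GSK3. Matrigel is itself a basement membrane extract rich in laminin. Each group was 1 library with no replicate, so no difference has a test or a check against biological spread.

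Integrins are receptors for the extracellular matrix, and each is a heterodimer of an alpha and a beta chain. The alpha chain largely sets the ligand, which may be laminin, collagen or proteins with an arginine-glycine-aspartate (RGD) motif. Laminins are trimers of an alpha, a beta and a gamma chain, which are secreted and polymerise into the sheet of basement membranes. In the eye, laminins lie in the inner limiting membrane, in Bruch's membrane and around vessels, and the endfeet of Mueller glia hold to the inner limiting membrane through integrins and dystroglycan. A laminin is named by its chains, so that laminin-511 holds the chains of Lama5, Lamb1 and Lamc1.

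Values are FPKM, in which fragments are scaled to transcript length and to library size, summed over the transcripts of a gene, and they can be compared between genes since length is taken into account. Log2 ratios compare the mNRPC level with the retina level after 1 FPKM was added to each, so the difference of low genes is understated. The estimated depth was 6498019 fragments in the mNRPC library and 5056012 in the retina library. Counting intervals at 95% rest on these estimates and cover counting error only. The retina library carried the markers of its label, with 8 rod genes summing to 20834 FPKM against 20.5 in the mNRPC library. Of 7 markers of retinal progenitors, 5 reached 1 FPKM in mNRPCs, among them Pax6 at 122.6 FPKM and Sox2 at 230.6 FPKM, while Rax was listed at 0. In bulk samples, fewer cells of a type and less RNA per cell cannot be told apart.

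The mNRPC library held far more integrin and laminin transcript than the retina library. The FPKM of the 26 integrin chains summed to 541.9 in mNRPCs and to 51.0 in retina, a ratio of 10.6. The 11 laminin chains summed to 280.5 and 15.6 FPKM, a ratio of 18.0. Over all genes in the table the sums were 574929 and 388765 FPKM, a ratio of 1.48, so the libraries did not have equal totals. The matrix chains thus differed in sum by a larger factor than the receptor chains, but in mNRPCs each sum rested largely on 1 chain. Lamb1 made up 152.9 FPKM of the laminin sum in mNRPCs and 3.39 FPKM in retina. Itgb1 made up 267.8 and 14.2 FPKM of the integrin sum. The larger factor is therefore one of sums and not of the chains in general. The sum of integrin chains over that of laminin chains was 1.93 in mNRPCs and 3.28 in retina.

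Of the 37 members, 19 reached 1 FPKM in at least 1 library and were compared. Of these, 18 were at least 2-fold higher in mNRPCs, 11 integrin and 7 laminin chains, and Itga9 was at least 2-fold lower. Among all 13780 genes compared, 24.5% were at least 2-fold higher and 30% at least 2-fold lower. The count of members is not independent of the filter, since 8 members passed through the mNRPC library only and 1 through the retina library only, while 10 reached 1 FPKM in both. Over every member, compared or not, the median log2 ratio was 0.31 for the integrin chains and 1.52 for the laminin chains, against 0 over all genes in the table and −0.12 over all genes compared. With both libraries brought to a common sum, the median of the genes compared, then 15090, moved to −0.74. The higher genes were then 29.0% of those past 2-fold in place of 44.9%. Under that rescaling the medians of the integrin and laminin chains were 0.33 and 1.25.

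**Figure D1:**
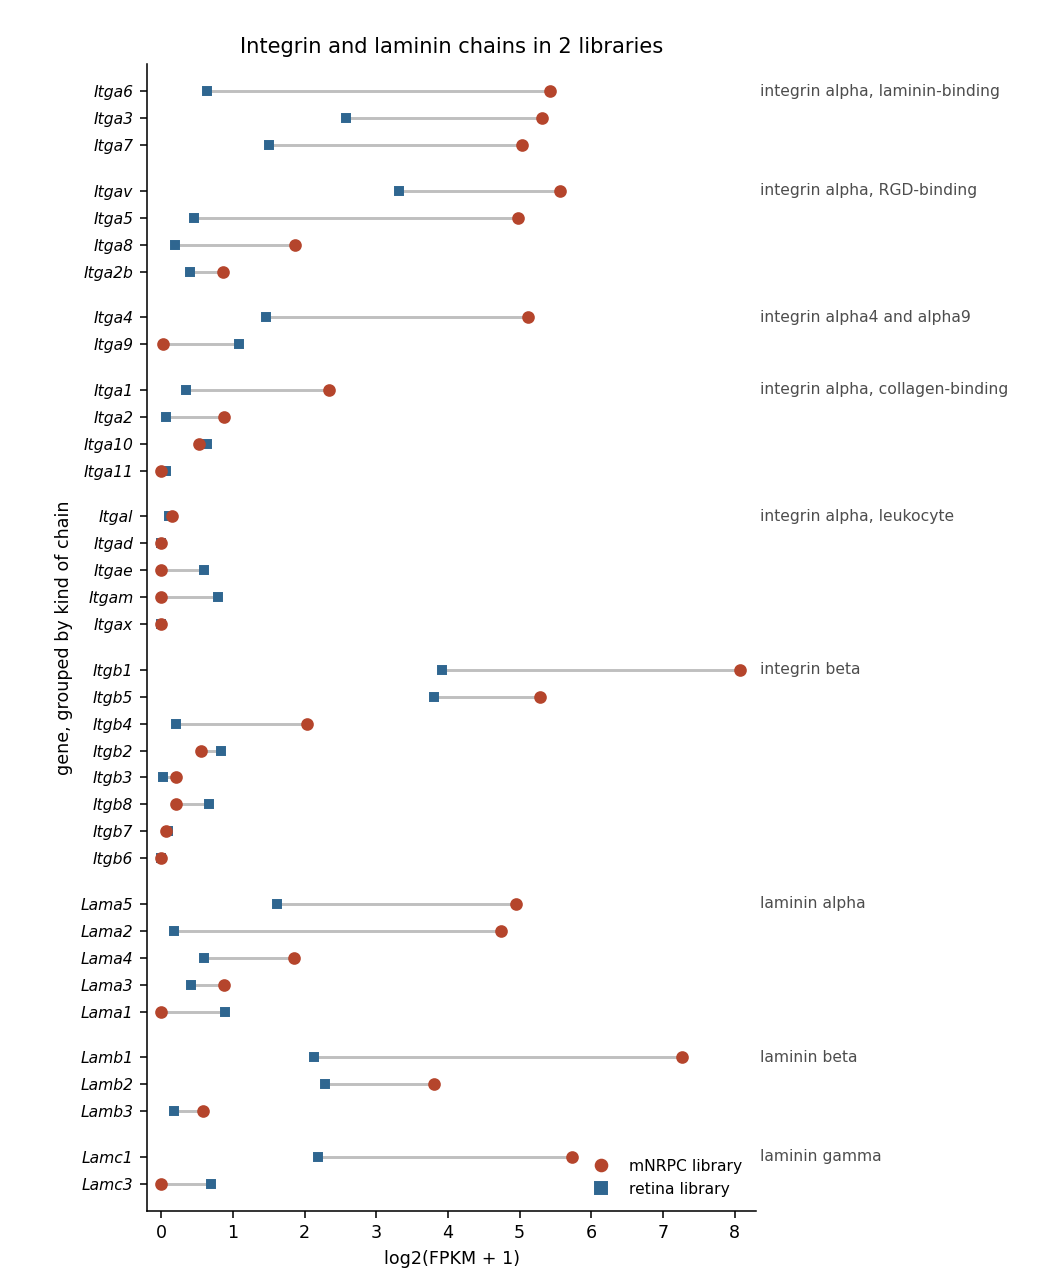
Level of each chain described here on the log2(FPKM + 1) scale in the mNRPC library (circles) and the retina library (squares), 1 library each, grouped by kind of chain. Itgb1 and Lamb1 stood highest in mNRPCs, at 267.8 and 152.9 FPKM, while the leukocyte alpha chains lay under 1 FPKM in both libraries.

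The alpha chains that bind laminin were described first. Itga6, which joins Itgb1 or Itgb4, was at 42.0 FPKM in mNRPCs and at 0.555 FPKM in retina, a log2 ratio of 4.79 (counting interval 4.49 to 5.09). Itga3, a receptor chain for laminins of the alpha 5 and alpha 3 kinds, was at 38.9 and 4.97 FPKM (2.74, 2.51 to 2.97). Itga7, best known from muscle where it binds laminins with the alpha 2 chain, was at 31.7 and 1.83 FPKM (3.53, 3.21 to 3.84). The 3 chains lay within a narrow range in mNRPCs and were spread more widely in retina, where Itga3 was the highest and Itga6, with an estimated 11.9 fragments, the lowest. Itga6 and Itga3 did not differ in mNRPCs beyond their counting error, and neither did Itga7 and Itga4.

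Itga6 has splice forms that differ in the cytoplasmic tail, the stretch that lies inside the cell. The curated A form was at 32.5 FPKM in mNRPCs and the curated B form at 3.66 FPKM, which were 77.3% and 8.71% of the gene's FPKM there, and the remainder lay on predicted transcripts. In retina the A form was at 0.104 FPKM and the B form at 0.141 FPKM, with fewer than 3 estimated fragments each, so that no order of the forms was detectable there. The forms enter separate exons after residue 1038, share 6 more residues, and part after residue 1044, from where the A form goes on for 29 residues and the B form for 47. The coding bases of each form after residue 1038 are shown, with the stop codon in capitals. Only the coding sequences of the forms were compared. They come from GENCODE M21 on GRCm38, plus strand, at chr2:71853534-71853641 for the A form and at chr2:71855854-71856015 for the B form.
Itga6 A form: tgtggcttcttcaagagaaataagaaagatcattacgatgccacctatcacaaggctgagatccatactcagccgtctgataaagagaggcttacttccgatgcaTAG
Itga6 B form: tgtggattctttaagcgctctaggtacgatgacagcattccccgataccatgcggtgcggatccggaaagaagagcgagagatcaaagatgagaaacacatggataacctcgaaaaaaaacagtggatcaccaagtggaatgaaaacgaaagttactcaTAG

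Rows of the other laminin-binding chains were unequal as well. The curated row of Itga3 held 91.3% of the gene's FPKM in mNRPCs and 8.54% in retina, where a predicted row held 75.8%. On curated rows alone the log2 ratio of Itga3 was 4.68, against 2.74 on the sum. The main row of Itga7 held 88.6% and 89.2%, so that gene's ratio rested on the same row in both libraries. Fragments that fit several transcripts are divided by estimation, which makes the level of a row less firm than that of its gene.

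Chains that bind RGD proteins came next. Itgav, which joins several beta chains and binds vitronectin and latent TGF-beta, was the highest alpha chain in both libraries, at 46.5 FPKM in mNRPCs and 8.96 FPKM in retina (log2 ratio 2.25, 2.10 to 2.41). Itga5, the fibronectin receptor chain, was at 30.6 and 0.374 FPKM (4.52, 4.24 to 4.81). Itga8, a receptor chain for nephronectin and fibronectin, was at 2.63 and 0.144 FPKM (1.67, 1.40 to 1.93), with an estimated 4.22 fragments in retina. These 3 were at least 2-fold higher in mNRPCs, and Itga2b, a chain of platelets, stayed under 1 FPKM at 0.811 and 0.324.

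Itga4 and Itga9 are close relatives that bind VCAM-1, fibronectin, tenascin-C and osteopontin among them, and they went in opposite directions. Itga4 was at 33.8 FPKM in mNRPCs and 1.74 FPKM in retina, a log2 ratio of 3.66 (3.46 to 3.87). Itga9 was at 0.0198 FPKM in mNRPCs, an estimated 0.539 fragment and thus not detectable at this depth, and at 1.12 FPKM in retina (log2 ratio −1.06, −1.35 to −0.77). The call of Itga9 depended on the setting, as its ratio was −0.40 on curated rows and −0.83 on the highest row, but −1.64 at a pseudocount of 0.5 and −1.91 with both libraries at the same sum.

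Of the collagen-binding chains, Itga1 alone reached 1 FPKM, at 4.05 FPKM in mNRPCs and 0.272 FPKM in retina (log2 ratio 1.99, 1.79 to 2.20). Itga2 was at 0.836 and 0.0434 FPKM, Itga10 at 0.437 and 0.554 FPKM, and Itga11 was listed at 0 in mNRPCs and stood at 0.0445 FPKM in retina. The collagen-binding chains together summed to 5.32 FPKM in mNRPCs, against 112.7 FPKM for the laminin-binding chains.

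The 5 alpha chains of leukocytes were under 1 FPKM in both libraries. Itgam, of macrophages and microglia, was listed at 0 in mNRPCs and stood at 0.725 FPKM in retina, and Itgae was listed at 0 and at 0.509 FPKM. Itgal was at 0.112 and 0.0785 FPKM, and Itgad and Itgax were listed at 0 in both. Their partner Itgb2 was at 0.463 and 0.779 FPKM. Of 12 markers of microglia and other leukocytes, 8 were listed at 0 in mNRPCs, Ptprc, Aif1 and Cx3cr1 among them, and all 12 were above 0 in retina, at 0.0148 to 22.3 FPKM. The summed level of that list was 108.0 FPKM in mNRPCs and 42.5 in retina, while the median of its genes was 0 in mNRPCs and 1.12 FPKM in retina. The part of leukocytes in the retina values was not tested.

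Among beta chains, Itgb1, the partner of most alpha chains, was the highest in both libraries, at 267.8 FPKM in mNRPCs and 14.2 FPKM in retina (log2 ratio 4.15, 3.98 to 4.31). Itgb5, which joins Itgav to bind vitronectin, was at 37.9 and 13.0 FPKM (1.47, 1.27 to 1.68). In retina Itgb1 and Itgb5 did not differ beyond counting error, and they held 49.3% and 45.1% of the FPKM of beta chains. In mNRPCs Itgb1 held 86.5% and Itgb5 12.2%. Itgb5 had a log2 ratio of 0.96 after rescaling to a common sum and was then no longer 2-fold higher.

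Itgb4, the chain that anchors hemidesmosomes to laminin, was at 3.08 FPKM in mNRPCs and 0.149 FPKM in retina (log2 ratio 1.83, 1.56 to 2.09). The other beta chains lay under 1 FPKM in both. Itgb8, which activates TGF-beta with Itgav, stood at 0.150 FPKM in mNRPCs against 0.582 FPKM in retina. Itgb3 was at 0.153 and 0.0196 FPKM, Itgb7 at 0.0508 and 0.0718 FPKM, and Itgb6 was listed at 0 in both libraries. The sum of beta chains over that of alpha chains was 1.33 in mNRPCs and 1.29 in retina, so the balance of the kinds was alike although the levels were not.

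**Figure D2:**
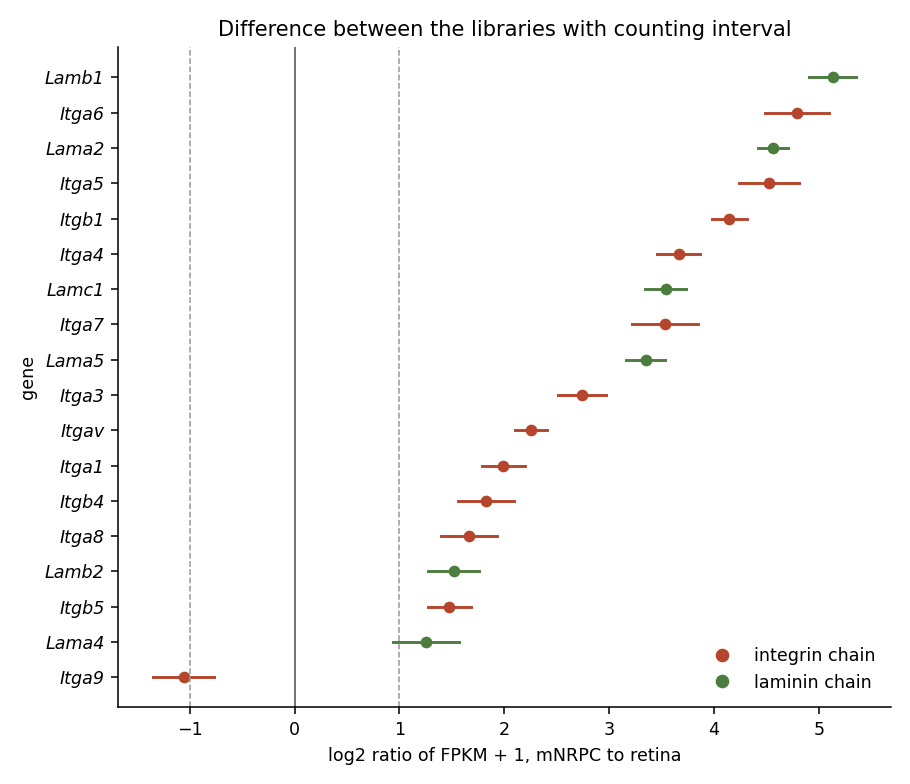
Log2 ratio of (FPKM + 1) between the mNRPC and retina libraries for the chains described here that reached 1 FPKM in at least 1 library, with 95% counting intervals that cover counting error only; dashed lines mark 2-fold. With 1 FPKM added, Lamb1 had the highest ratio at 5.13, and Itga9 was the chain below 0, at −1.06. The top rank depended on the setting. At a pseudocount of 0.5, Lama2 (5.38) and Itga6 (5.33) lay above Lamb1 (5.30). After rescaling to a common sum they were at 5.10 and 4.93, against 4.78 for Lamb1.

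The laminin alpha chains carry the sites that integrins and dystroglycan bind. Lama5 was at 30.0 FPKM in mNRPCs and 2.05 FPKM in retina (log2 ratio 3.35, 3.16 to 3.53). The curated row of Lama5 held 80.0% of its level in mNRPCs and 37.3% in retina, and its log2 ratio was 3.83 on curated rows. Lama2, the chain lost in merosin-deficient muscular dystrophy, was at 25.7 and 0.130 FPKM (4.56, 4.42 to 4.71), a 197-fold difference without the added 1, with an estimated 6.33 fragments in retina. Its curated row held 34.8% of its mNRPC level, and the log2 ratio was 3.23 on curated rows and 3.71 on the highest row. Lama4, a chain of vessel walls, was at 2.61 and 0.517 FPKM (1.25, 0.94 to 1.57), and its interval reached below 2-fold. Lama5 and Lama2 held 50.7% and 43.4% of the FPKM of laminin alpha chains in mNRPCs, and 52.8% and 3.36% in retina.

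Lama1 and Lama3 did not reach 1 FPKM. Lama1, a chain of embryonic basement membranes and of the inner limiting membrane, was listed at 0 in mNRPCs on each of its 3 rows and stood at 0.849 FPKM in retina, an estimated 40.9 fragments and 21.9% of the alpha chains there. Lama3, of epithelial laminins, was at 0.833 and 0.337 FPKM. The pattern of the alpha chains thus differed in kind, with Lama2 present and Lama1 at 0 in mNRPCs, and Lama1 above Lama2 in retina.

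Lamb1 was the highest laminin chain in mNRPCs. It stood at 152.9 FPKM there and at 3.39 FPKM in retina, a log2 ratio of 5.13 (4.91 to 5.35), which is above that of 99.1% of all genes compared. The curated row of Lamb1 held 57.1% of its level in mNRPCs and 21.8% in retina, and its log2 ratio was 5.67 on curated rows. Lamb2, a chain of synapses and of the retina, was at 13.0 and 3.89 FPKM (1.52, 1.27 to 1.76). In retina Lamb2 and Lamb1 did not differ beyond counting error and held 52.5% and 45.8% of the beta chains, whereas in mNRPCs Lamb1 held 91.9%. Lamb3, of epithelial laminin, was at 0.503 and 0.125 FPKM.

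Lamc1, the gamma chain of most laminins, was at 52.0 FPKM in mNRPCs and 3.55 FPKM in retina (log2 ratio 3.54, 3.34 to 3.74), and it held 94.7% and 83.1% of the gamma chains. Lamc3, which is expressed in retina and brain, was listed at 0 in mNRPCs and stood at 0.622 FPKM in retina. The sum of laminin beta chains was 3.03 times that of gamma chains in mNRPCs and 1.73 times in retina, and alpha over gamma was 1.08 and 0.91.

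**Figure D3:**
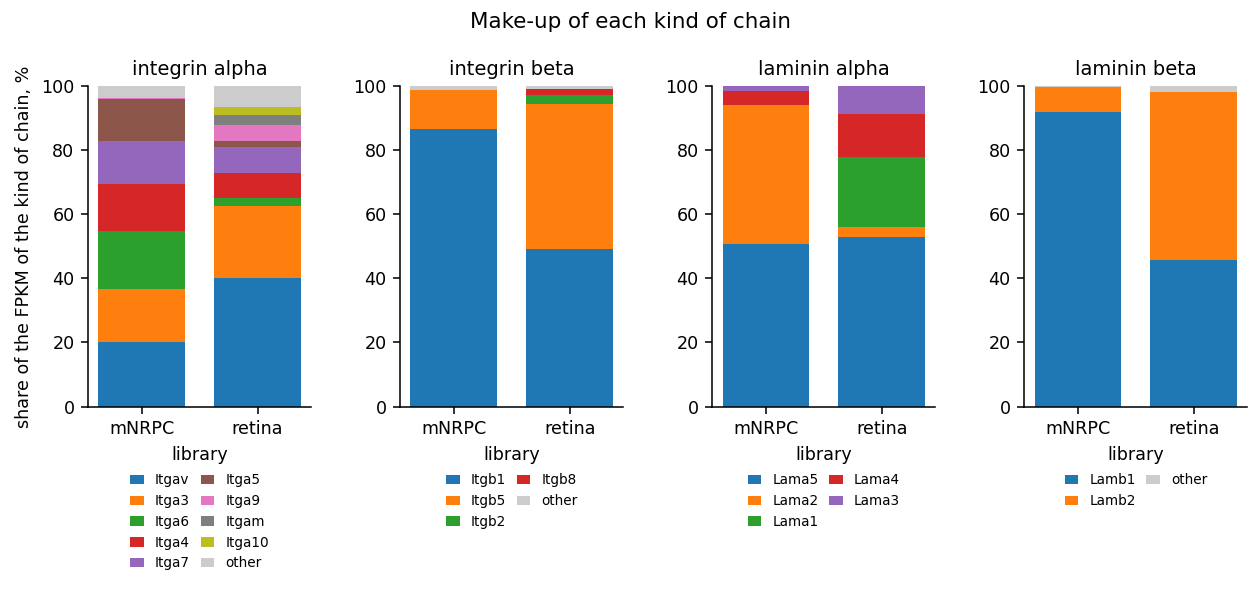
Share of each chain, in percent of the FPKM of its kind (integrin alpha and beta, laminin alpha and beta), in the mNRPC and retina libraries, 1 bar per library; chains under 2% in both libraries or past the ninth are pooled as other. Itgb1 and Lamb1 took 86.5% and 91.9% of their kinds in mNRPCs and 49.3% and 45.8% in retina.

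Chains work only in assemblies, so the scarcest chain of each known assembly was taken as its level of transcript. This is a reading of RNA and not a measure of protein pairs, and chains shared by several assemblies are counted in each. Of 24 integrin heterodimers, 10 had every chain at 1 FPKM or above in mNRPCs and 6 in retina, and 5 had this in both. At 5 FPKM there were 7 in mNRPCs and 2 in retina. The 7 were Itgb1 with Itga3, Itga4, Itga5, Itga6, Itga7 or Itgav, and Itgav with Itgb5. In retina the 2 were Itgav with Itgb1 and Itgav with Itgb5, both at 8.96 FPKM, the level of Itgav.

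Every heterodimer of Itgb1 was limited by its alpha chain in mNRPCs, since Itgb1 exceeded each alpha chain. Itga6 with Itgb4 reached 3.08 FPKM in mNRPCs, set by Itgb4, and 0.149 FPKM in retina. Itga9 with Itgb1 was the heterodimer that reached 1 FPKM in retina only, at 1.12 FPKM.

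Of 14 laminin trimers, 6 had every chain at 1 FPKM or above in mNRPCs and 2 in retina, laminin-511 and laminin-521, which reached it in both libraries. Laminin-511 was at 30.0 FPKM in mNRPCs and 2.05 FPKM in retina, set by Lama5 in both. The retina level rested on predicted rows as well, as the curated rows of Lama5 and Lamb1 were at 0.764 and 0.740 FPKM there. Laminin-211 was at 25.7 and 0.130 FPKM, set by Lama2 and thus by the rows summed for it. Laminin-221 and laminin-521 were both limited by Lamb2 in mNRPCs, at 13.0 FPKM. Laminin-111 and laminin-121 were at 0 in mNRPCs because Lama1 was listed at 0, and stood at 0.849 FPKM in retina. After rescaling to a common sum, 8 trimers reached 1 in mNRPCs and 8 in retina, and 11 heterodimers in mNRPCs and 10 in retina, but this also lowers the cut, since it raises the values of both libraries. Trimmed mean and upper quartile scaling left the counts at 10 and 6 heterodimers and 6 and 2 trimers, and on curated rows 0 trimers reached 1 FPKM in retina.

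**Figure D4:**
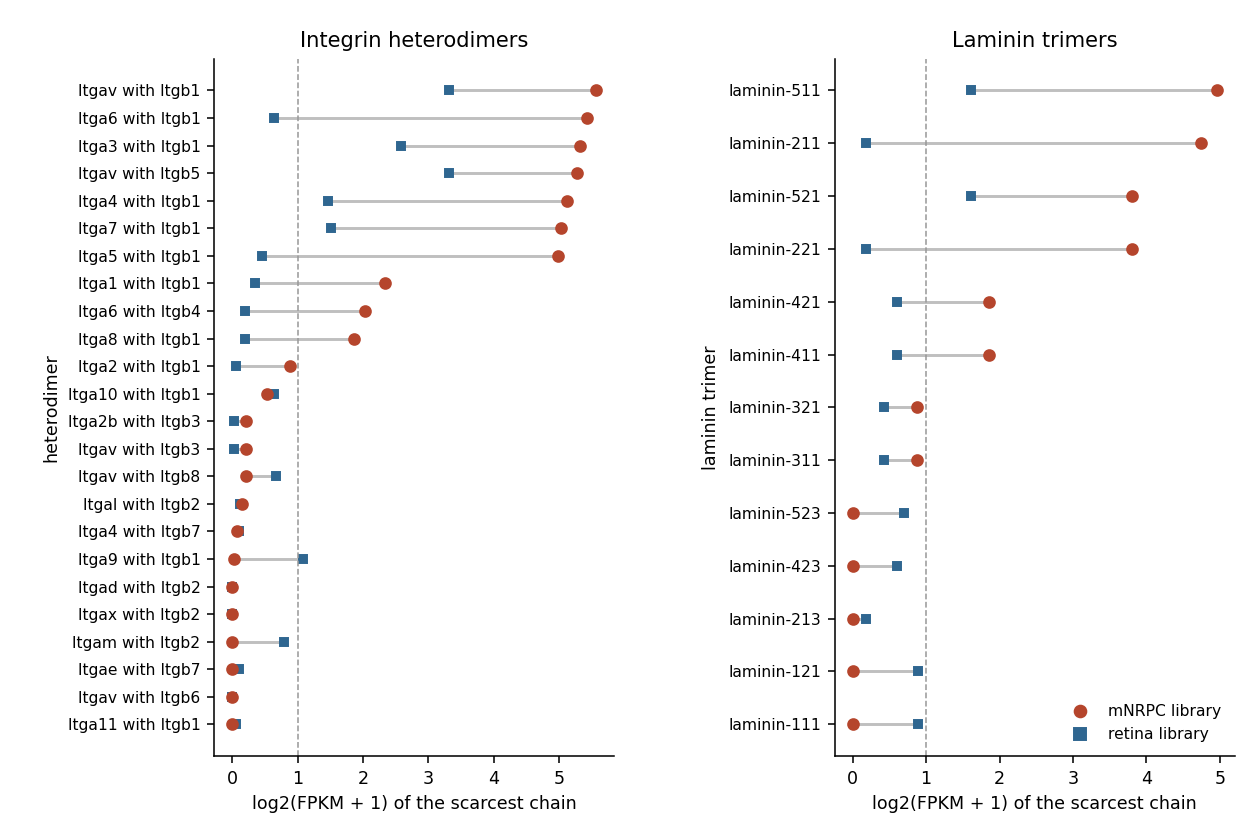
Level of the scarcest chain, as log2(FPKM + 1), in integrin heterodimers (left) and the laminin trimers described here (right) in the mNRPC library (circles) and the retina library (squares); the dashed line marks 1 FPKM. In mNRPCs 10 heterodimers and 6 trimers lay at or above the line, against 6 and 2 in retina.

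The upstream sequence of the members was then searched. The RefSeq table of promoters on GRCm38.p6 held 23 of the 37 members, and the 250 bases before the start were used. The GC box, GGGCGG on either strand, was in 8 of the 23 and in 32.9% of all 27025 promoters of that length. The TEAD motif, GGAATG, was in 2 and in 12.6% of all promoters, and the AP-1 motif, TGANTCA, was in 1 and in 6.87%. TATAAA was in none of the 23 and in 13.0% of all. The median GC content was 58.4% for the members and 52% for all promoters. A match is a run of letters and not a site that was shown to be bound.

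The promoters of the highest receptor chain (Itgb1), the highest matrix chain (Lamb1) and Lama2, an alpha chain that differed between the libraries, are shown, with the motif matches in capitals. Itgb1 lies at chr8:128685404.0-128685653.0 on the plus strand, with 1 GC box and 1 TEAD match. Lamb1 lies at chr12:31265043.0-31265292.0 on the plus strand, with 2 GC boxes in reverse. Lama2 lies at chr10:27616943.0-27617192.0 on the minus strand, with no match to the 4 motifs.
Itgb1: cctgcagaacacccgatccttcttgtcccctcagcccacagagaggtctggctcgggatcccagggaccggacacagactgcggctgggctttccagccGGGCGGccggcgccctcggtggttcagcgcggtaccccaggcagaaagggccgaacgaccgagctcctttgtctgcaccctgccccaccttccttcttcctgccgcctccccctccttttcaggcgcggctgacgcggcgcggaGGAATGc
Lamb1: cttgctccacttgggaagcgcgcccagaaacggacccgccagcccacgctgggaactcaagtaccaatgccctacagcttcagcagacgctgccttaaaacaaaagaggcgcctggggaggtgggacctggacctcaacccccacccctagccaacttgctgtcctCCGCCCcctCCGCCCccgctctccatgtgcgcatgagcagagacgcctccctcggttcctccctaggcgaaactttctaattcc
Lama2: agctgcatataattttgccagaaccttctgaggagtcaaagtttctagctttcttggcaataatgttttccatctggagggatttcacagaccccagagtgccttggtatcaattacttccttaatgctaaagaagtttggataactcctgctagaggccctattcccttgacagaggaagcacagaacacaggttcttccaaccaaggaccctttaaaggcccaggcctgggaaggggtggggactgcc

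Genes that act with integrins inside the cell were compared next. Of 35 genes of the adhesion complex, 30 were compared, of which 19 were at least 2-fold higher in mNRPCs and 5 at least 2-fold lower, with a median log2 ratio of 1.15 over the list. These are 63.3% and 16.7% of the genes compared, beside 24.5% and 30% over all genes. Talin and kindlin switch integrins on, and Tln1 was at 34.3 FPKM in mNRPCs and 6.88 FPKM in retina (log2 ratio 2.16), and Fermt2 at 35.6 and 7.31 FPKM (2.14). Ilk, the core of a scaffold at beta tails, was at 132.6 and 27.7 FPKM (2.22), whereas Ptk2, the focal adhesion kinase, was at 14.4 and 11.4 FPKM (0.31) and lay within 2-fold. The genes named by rank at the upper end were Rsu1 (3.58), Kank2 (3.58), Nedd9 (3.15) and Actn4 (2.62), all in log2 ratio.

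Among genes with at least 5 FPKM in a library, the 4 smallest ratios were those of Git1, Kank1, Tln2 and Arhgef7. Tln2 was at 2.66 FPKM in mNRPCs and 16.9 FPKM in retina (log2 ratio −2.29), against the higher Tln1. Kank1 was at 0.159 and 11.2 FPKM (−3.40), against the higher Kank2 at 45.2 and 2.87 FPKM. Git1 had a log2 ratio of −3.49, and Arhgef7 (−0.51) lay within 2-fold. Paralogs could also share a direction, as Actn1 (2.40) and Actn4 did.

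Of 20 partners of laminin in basement membranes, 16 were compared, of which 10 were higher (62.5%) and 4 lower (25%, near the 30% over all genes), with a median log2 ratio of 1.03. Nidogen bridges laminin and collagen IV, and Nid1 was at 14.9 FPKM in mNRPCs and 0.372 FPKM in retina (3.53), while Nid2 was at 0.0237 and 0.568 FPKM and was not compared. Hspg2, perlecan, was at 26.4 and 0.445 FPKM (4.24), and Agrn at 50.8 and 8.86 FPKM (2.39). The upper end also held Col4a6 at 5.08, Col4a1 at 4.53 and Col18a1 at 4.21 in log2 ratio. Among other collagens of the list, Col4a5 (3.46) and Col4a2 (3.23) were higher as well. Col4a3 was lower (−1.55) and Col4a4 lay within 2-fold (−0.80). Egflam, pikachurin, which links dystroglycan to photoreceptor synapses, was at 0.0801 and 12.4 FPKM (−3.63), and Smoc1 was listed at 0 in mNRPCs and at 7.79 FPKM in retina.

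The list of laminin receptors other than integrins had 12 genes. It also held Dmd, Utrn and sarcoglycan genes, which are not themselves laminin receptors. Of the list, 11 were compared, with 6 higher (54.5%) and 3 lower (27.3%, near the share over all genes). The median log2 ratio was 1.53. Dag1, dystroglycan, was at 36.5 FPKM in mNRPCs and 7.81 FPKM in retina (2.09). Syndecans are proteoglycans that act beside integrins, and Sdc1 was at 29.8 and 0.335 FPKM (4.53), Sdc4 at 161.5 and 28.8 FPKM (2.45) and Sdc3 at 7.12 and 20.5 FPKM (−1.41). Dmd, dystrophin, was at 1.58e-05 FPKM in mNRPCs, below detection, and at 11.6 FPKM in retina, and its relative Utrn was at 15.8 and 7.51 FPKM (0.98). Dag1 was thus higher in mNRPCs and Dmd lower.

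Of 21 ligands of integrins other than laminin, 17 were compared, with 9 higher (52.9%) and 4 lower (23.5%), beside 24.5% and 30% over all genes, and a median log2 ratio of 0.34. Vtn, vitronectin, a ligand of Itgav, was at 0.219 FPKM in mNRPCs and 420.2 FPKM in retina (−8.43). The 4 with the largest ratios were Spp1, Tnc, Vcam1 and Thbs1. Spp1, osteopontin, was at 1535 and 16.5 FPKM (6.46), Tnc, tenascin-C, at 90.9 and 0.0943 FPKM (6.39) and Vcam1 at 423.7 and 4.04 FPKM (6.40). Fn1, fibronectin, the ligand of Itga5, was at 9.09 and 3.43 FPKM (1.19), a smaller difference than that of its receptor chain. Thbs1, thrombospondin, was at 105.0 and 0.609 FPKM (6.04).

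Markers of other cells that border or make basement membrane are given beside these values. Of 6 Mueller glia markers, 1 was listed at 0 in mNRPCs, with a range of 0 to 31.4 FPKM and a sum of 35.8, against 11.03 to 897.5 FPKM and a sum of 1800 in retina. Of 6 markers of pigment epithelium, 4 were listed at 0 in mNRPCs, with a range of 0 to 0.135 FPKM and a sum of 0.197, against 0.215 to 56.5 FPKM and a sum of 90.6 in retina. The retina library thus held more of both lists. Of 8 endothelial markers, 3 were listed at 0 in mNRPCs, with a range of 0 to 2.59 FPKM and a sum of 3.62, against 0.540 to 29.5 FPKM and a sum of 59.6 in retina. Of 7 mural cell markers, 4 were listed at 0 in mNRPCs, with a sum of 14.6 FPKM against 17.3 in retina, and Acta2 held 10.1 and 4.39 FPKM of these. The 5 fibroblast markers summed to 5.16 and 5.32 FPKM. The part of these cells in the retina values was not tested.

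**Figure D5:**
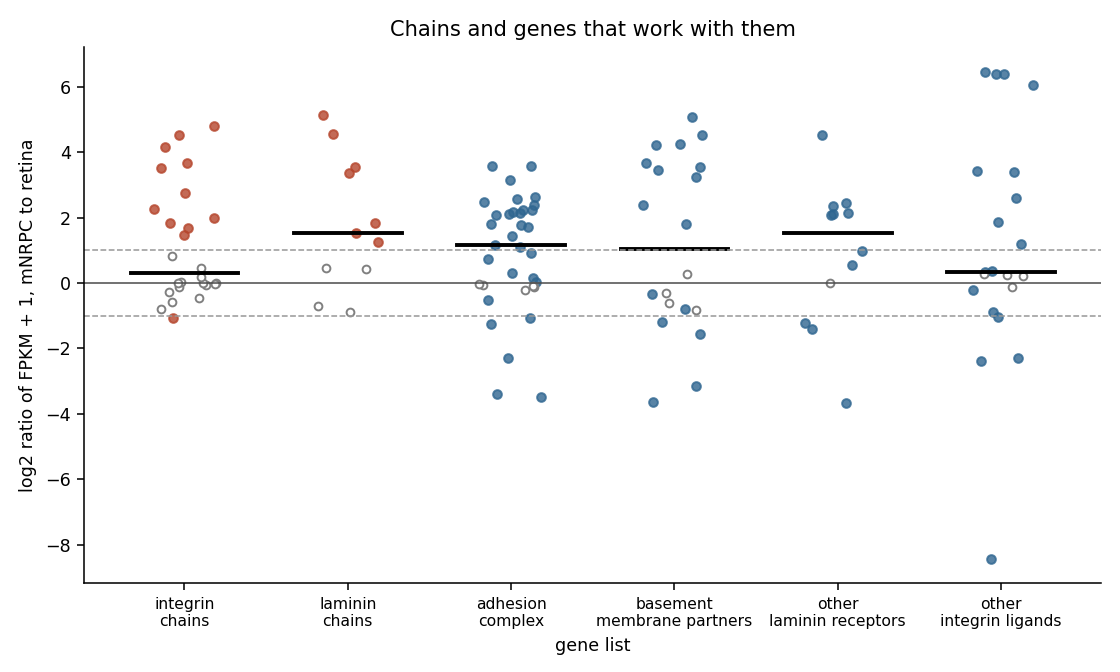
Log2 ratio of (FPKM + 1), mNRPC to retina, for the integrin chains, the laminin chains and the 4 lists of genes that act with them; filled points reached 1 FPKM in at least 1 library, open points did not, bars are medians over every gene of a list and dashed lines mark 2-fold. The medians were 0.31, 1.52, 1.15, 1.03, 1.53 and 0.34 from left to right.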

How the data were processed

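RNA was sequenced in 1 mNRPC library and 1 retina library. The authors deposited FPKM values for 106754 RefSeq transcripts. The study's methods name Bowtie 2 and eXpress, while the submitters' processing notes name TopHat2 2.0.10 and GRCm38.p3, and the sources also differ on the sequencer. Values under 1e-06 were read as 0.

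Transcripts were matched by accession without version to the RefSeq gene table of GRCm38.p6, the remainder to GENCODE M21, and rows of a symbol were summed (74280 rows matched, 31253 genes). The members had 90 rows, 47 of them curated. A pseudocount of 1 was added before log2, genes that reached 1 FPKM in either library were compared, and a log2 ratio of at least 1 in size counted as past the threshold. Depth was estimated from the lowest FPKM values times length, over transcripts of at least 1500 bp, and 3 estimated fragments was the limit of detection (0.231 FPKM in mNRPCs and 0.297 FPKM in retina for 2000 bp). Where a predicted row had no length, the median of its gene was taken. With a shortest transcript of 500 bp the depths were 6534152 and 4945101. Such intervals and limits are estimates. The scripts were tested on simulated data, in Python 3.11.15 with pandas 2.3.3, numpy 2.4.6 and scipy 1.17.1.

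Chains with at least 5 FPKM were named with both values, and the others were given by their levels. In the lists of other genes, the 4 largest and 4 smallest ratios among genes with at least 5 FPKM and a set of fixed partners could be named; other genes named were chosen after their values were seen. Groups were taken from the labels. Other pseudocounts, scalings, filters, thresholds and ways to sum rows were tried. The members and lists were chosen with earlier results of these data known. No protein sequences were used here. A few genes, 1 chain among them, count in the sums, counts and medians without being described singly.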

Additional observations from a re-analysis of the deposited data

How the results depend on the processing

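No difference has a replicate check, and estimated depth limits low values, such as the retina levels of Itga6 and Lama2. No paired analysis was possible because there was just 1 library in each group. None of the other settings turned the direction of a compared chain. Of 133 log2 ratios of the 19 chains under other settings, 72 moved by less than the counting interval, 61 by more, and 4 fell under 1 in size, among them those of Itgb5 and Itga9 given above. The cause of the shifts was not tested.

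Rescaling to a sum of 1e6 gave 6609 lower genes, with 3 integrin chains, 2 laminin chains and 7 basement membrane partners lower, and 10 heterodimers and 8 trimers at 1 in retina, against 11 and 8 in mNRPCs. Upper quartile scaling moved the median of all genes compared to −0.46 (35.0% of called genes higher) and trimmed mean scaling to −0.24. With curated rows 0 integrin chains, 3 adhesion complex genes and 2 other ligands were lower, and 0 trimers reached 1 FPKM in retina. On the highest row 0 integrin chains were lower. At a minimum of 5 FPKM 0 integrin chains, 3 adhesion complex genes, 2 partners and 2 other ligands were lower. At a log2 ratio of at least 2, 1547 genes were higher and 1942 lower, with 7 integrin and 4 laminin chains higher. Lower at that threshold were 0 integrin chains, 3 adhesion complex genes, 2 partners and 1 gene on the list of other laminin receptors.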
